A study of Mus musculus with 21 samples.

Results

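Polyclonal chronic cells and vehicle chronic cells are end states of the same repeated anti-CD3 protocol, made in separate experiments of a mouse CD8 T cell study and compared here by RNA sequencing. Genes were taken where RPKM (the reads of a gene divided by its length and by the library's depth) was 1 or more in at least 3 of these 6 libraries, which gave 11071 of the 13202 genes in the table. Of these, 10130 reached 1 RPKM in all 6 libraries, 420 passed only through the polyclonal chronic libraries and 71 only through the vehicle chronic libraries, so genes of those 71 and 420 had to differ. A gene under 1 RPKM in all 3 libraries of 1 group belongs to those 71 or 420. For such genes this filter fixed the direction and the separation of the groups, also where they count in a list. The series holds 21 libraries in 7 groups of 3. All 4 groups used here (polyclonal chronic, vehicle chronic, polyclonal acute and vehicle acute) are labelled as CD8+ T cells of C57BL/6 mice, from spleen and inguinal lymph nodes after a kit had removed other cells. Cells of every group were activated for 48 h on plate-bound anti-CD3 and anti-CD28 and kept in medium with serum, glutamine, beta-mercaptoethanol and 10 ng/mL interleukin 2 (IL-2). Polyclonal chronic and vehicle chronic cells met plate-bound anti-CD3 again every 48 h, while polyclonal acute and vehicle acute cells did not, and all were harvested on day 8. The vehicle groups carried the vehicle of N-acetylcysteine, which is not named in the labels, and the labels list no vehicle for the polyclonal groups. The 2 experiments fall into the same split as the comparison, and the labels give no mice or culture days. Differences in mice, culture days or sequencing, if any, and in the culture itself therefore cannot be told apart. Nothing in the labels ties the libraries of a group to separate mice or cultures, so the p-values rest on a spread between samples that may be technical.

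T cells fall into a CD8 and a CD4 lineage, named for the coreceptor they carry. CD8 T cells recognise peptides on MHC class I molecules and kill target cells with perforin and granzymes, proteases stored in granules. CD4 T cells recognise peptides on MHC class II molecules of B cells and other presenting cells and act through cytokines, among which interleukins 4, 5 and 13 mark type 2 helper cells. Repeated stimulation of the T cell receptor is a culture model of exhaustion, a state known for sustained inhibitory receptors such as PD-1.

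The coreceptor genes went against the label of the polyclonal chronic libraries. Cd4 was at 317, 303 and 317 RPKM in the 3 polyclonal chronic libraries and at 2.39, 2.16 and 2.63 RPKM in the 3 vehicle chronic libraries. Cd8a was at 8.30, 8.51 and 8.63 RPKM in polyclonal chronic and 144, 146 and 145 RPKM in vehicle chronic libraries. Every polyclonal chronic library thus had more Cd4 than Cd8a RNA per length, and every vehicle chronic library the reverse. The name polyclonal chronic is kept below for the libraries labelled so.

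Facts of the libraries that touch the results are these. Reads in genes numbered 7738101 to 15147347 per polyclonal chronic and 15950688 to 17539278 per vehicle chronic library. Polyclonal chronic libraries listed 8 to 100 genes at 0, and vehicle chronic libraries 440 to 577. Pigment cell RNA was present in the polyclonal chronic libraries: Tyrp1, Mlana and Dct stood at 0.314 to 1.01% of their level in the OT-I libraries of the series, which were cultured with melanoma cells, and at no more than 0.00235% in vehicle chronic libraries. Among the 3 polyclonal chronic libraries, library 2 had the most. In 9 of the 11071 genes the polyclonal chronic level was no more than that share of the OT-I level, and 5 of the 9 were called higher. Xist was read in every library of the 4 groups and Ddx3y was at or near 0.

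Differences are given as polyclonal minus vehicle on the log2(RPKM + 1) scale, where changes of low genes come out too small, and a gene was called where the adjusted p of a limma fit was under 0.05. Of the 11071 genes 6862 were called (62.0%), 3321 higher (30.0%) and 3541 lower (32.0%) in polyclonal chronic cells. Over all 12630 genes tested 57.0% were called, 28.6% higher and 28.4% lower, and 6.25% were called at least 2-fold higher and 3.42% at least 2-fold lower. Among the 11071 genes these were 775 higher and 432 lower genes. The libraries of both groups did not overlap in 68.2% of the 11071 genes, so a lack of overlap is common here. The median difference was -0.02 over these genes and 0.03 over all 12630 genes tested, and the median size without sign was 0.27. A difference of 2 or more on the log2 scale was reached by 257 genes and one of -2 or less by 104. Counts for gene lists are to be read against 30.0% higher and 32.0% lower, and some genes stand in several lists.

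The killer lineage genes were low in polyclonal chronic cells. Of 10 CD8 T cell lineage genes 9 were lower and 1 was higher, with a median difference of -3.34, and their summed level was 175 to 179 RPKM in polyclonal chronic and 1930.1 to 1977 RPKM in vehicle chronic libraries. Cd8a, a chain of the CD8 coreceptor, differed by -3.95 (SE 0.036, adjusted p = 2.29e-24). Cd8b1, the other chain, was at 24.05, 21.3 and 23.8 RPKM in polyclonal chronic and 88.6, 88.8 and 89.1 RPKM in vehicle chronic libraries (log2 difference -1.90, SE 0.059, adjusted p = 3.38e-16). Cd160, a surface receptor of CD8 T and NK cells, was at 0.738, 0.929 and 0.650 RPKM in polyclonal chronic and 37.1, 37.4 and 36.97 RPKM in vehicle chronic libraries (log2 difference -4.43, SE 0.074, adjusted p = 2.06e-20). None of these groups of 3 overlapped, which the filter fixed for Cd160. The gene that went the other way was the integrin gene Itgae, named here after its value was seen (log2 difference 0.77). In bulk RNA, fewer cells of a type and less RNA per cell cannot be told apart.

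Genes of the helper lineage were high. Of 8 CD4 T cell lineage genes 7 were higher and none lower, with a median of 1.74, and the list summed to 1058 to 1098 RPKM in polyclonal chronic and 209 to 215 RPKM in vehicle chronic libraries. Cd4 itself differed by 6.53 (SE 0.097, adjusted p = 3.25e-21). Cd40lg, which encodes the CD40 ligand through which helper cells activate B cells, was at 43.1, 40.01 and 47.7 RPKM in polyclonal chronic and 0.401, 0.502 and 0.380 RPKM in vehicle chronic libraries (log2 difference 4.96, SE 0.11, adjusted p = 1.26e-18). Tnfsf8, the CD30 ligand gene, was at 156 ± 4.34 RPKM in polyclonal chronic and 25.8 ± 0.816 RPKM in vehicle chronic cells (SD, n = 3 each), and Tnfrsf4, which encodes the costimulatory receptor OX40, at 255 ± 9.46 RPKM in polyclonal chronic and 64.97 ± 1.10 RPKM in vehicle chronic cells. In both genes the 3 polyclonal chronic libraries lay above the 3 vehicle chronic ones. The remaining gene, Tnfsf11, named after its value was seen, did not pass (log2 difference -0.07). Cd4 RNA also varied within the vehicle experiment, with a mean of 47.9 RPKM in chronic cells given N-acetylcysteine and 13.9 RPKM in vehicle acute cells.

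Genes that both lineages share moved less. Of 14 common T cell genes 5 were higher and 8 lower, with a median of -0.29 and a summed level of 3228 to 3502 RPKM in polyclonal chronic and 4078 to 4098 RPKM in vehicle chronic libraries. The adhesion receptor gene Cd2 rose to 404 ± 26.1 RPKM in polyclonal chronic cells, against 206 ± 10.8 RPKM in vehicle chronic cells (log2 difference 0.96, SE 0.07, adjusted p = 2.55e-10). The costimulatory receptor gene Cd28 was also higher (283 ± 5.23 RPKM in polyclonal chronic and 163 ± 3.24 RPKM in vehicle chronic cells). Lower members included Thy1, a T cell surface glycoprotein gene (555 ± 36.8 RPKM in polyclonal chronic and 999.9 ± 17.9 RPKM in vehicle chronic cells), and Trat1, which encodes an adaptor that stabilises the receptor complex (log2 difference -1.65).

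**Figure D1:**
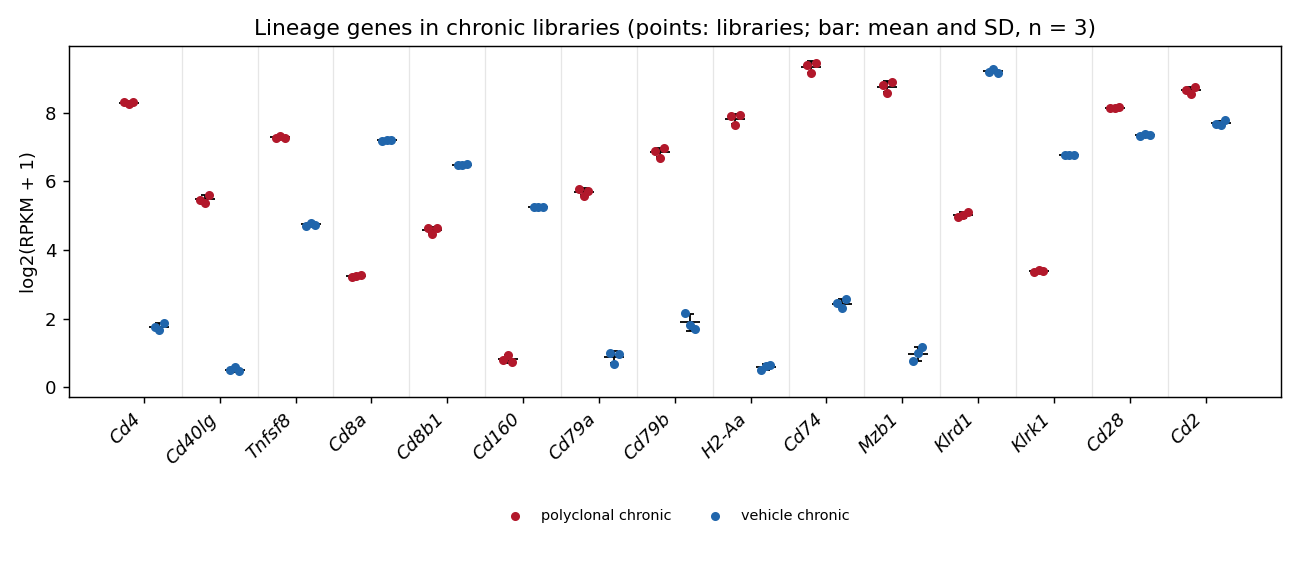
Levels of lineage genes as log2(RPKM + 1), with 1 point per library and bars for the mean and SD of 3 libraries, polyclonal chronic on the left of each pair and vehicle chronic on the right. Cd4, Cd40lg, Tnfsf8 and the B cell and MHC class II genes are higher in polyclonal chronic libraries, Cd8a, Cd8b1, Cd160, Klrd1 and Klrk1 are lower, and the groups overlap in none of the 15 genes. For Cd40lg, Cd160, Cd79a and H2-Aa the filter fixed this lack of overlap.

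All receptors that T cells share with NK cells were lower. The list has 14 measured genes, all 14 lower, with a median of -2.61. Klrd1, which encodes the CD94 chain of an MHC class I-reading receptor, was at 29.9, 31.3 and 33.6 RPKM in polyclonal chronic and 578, 621 and 572 RPKM in vehicle chronic libraries (log2 difference -4.18, SE 0.086, adjusted p = 4.79e-19). Klrk1, the gene of the activating receptor NKG2D, was at 9.32, 9.58 and 9.46 RPKM in polyclonal chronic and 109, 107 and 107 RPKM in vehicle chronic libraries (log2 difference -3.38, SE 0.042, adjusted p = 2.44e-22). Crtam, an adhesion receptor gene, stood at 5.37 ± 0.611 RPKM in polyclonal chronic and 75.99 ± 3.21 RPKM in vehicle chronic cells. The separate NK cell list fell in all 7 measured genes, among them Klre1 (log2 difference -2.77), Cd244 (-2.32) and Klrb1c, which encodes NK1.1 (-2.57). CD8 T cells express several genes of both lists, and the defining NK gene Ncr1 did not reach 1 RPKM in 3 of the 6 libraries. Klr genes form families of close copies, so reads may be split between them.

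Most B cell genes were higher in polyclonal chronic than in vehicle chronic libraries. Of 17 measured B cell genes 15 were higher and 2 lower (Cd72 and Cd37, named after their values were seen), with a median of 3.38, and the list summed to 639.8 to 683 RPKM in polyclonal chronic and 174 to 179 RPKM in vehicle chronic libraries. Cd79a, a signalling chain of the B cell receptor, was at 53.4, 46.6 and 52.1 RPKM in polyclonal chronic and 0.992, 0.602 and 0.939 RPKM in vehicle chronic libraries (log2 difference 4.81, SE 0.18, adjusted p = 5.66e-15). The partner chain gene Cd79b was at 117, 102 and 124 RPKM in polyclonal chronic and 3.46, 2.50 and 2.22 RPKM in vehicle chronic libraries (log2 difference 4.96, SE 0.18, adjusted p = 4.78e-15). Pou2af1, a B cell coactivator gene, reached 248 ± 12.6 RPKM in polyclonal chronic cells, against 0.865 ± 0.122 RPKM in vehicle chronic cells (log2 difference 7.06, SE 0.2, adjusted p = 5.31e-17). For each of these genes every polyclonal chronic library lay above every vehicle chronic library, which the filter fixed for Cd79a.

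Genes of antibody-secreting cells divided. Of 12 measured plasma cell genes 8 were higher and 2 lower, with a median of 0.95. Mzb1, an endoplasmic reticulum chaperone gene of B and plasma cells, was at 448, 379.7 and 475 RPKM in polyclonal chronic and 0.692, 1.01 and 1.24 RPKM in vehicle chronic libraries (log2 difference 7.78, SE 0.14, adjusted p = 9.23e-20). Jchain, which encodes the joining chain of secreted antibodies, was at 104, 101 and 107 RPKM in polyclonal chronic and 0.298, 0.353 and 0.480 RPKM in vehicle chronic libraries (log2 difference 6.25, SE 0.17, adjusted p = 3.15e-17). Both genes were high in all 3 polyclonal chronic libraries and under 2 RPKM in all vehicle chronic ones. Jchain passed the filter only through the polyclonal chronic libraries. Irf4, a transcription factor gene used by plasma cells and by activated T cells alike, was at 145 ± 5.52 RPKM in polyclonal chronic and 36.2 ± 0.881 RPKM in vehicle chronic cells. Sdc1, the CD138 gene by which plasma cells are often recognised, did not pass (log2 difference -0.02, named after its value was seen).

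MHC class II genes, which B cells and other presenting cells use to show peptides to CD4 T cells, rose together. Of 14 measured genes of this list 13 were higher and none lower, with a median of 2.83, and the list summed to 1251 to 1510.4 RPKM in polyclonal chronic and 49.2 to 52.1 RPKM in vehicle chronic libraries. Cd74, the invariant chain gene that guides these molecules to endosomes, was at 672, 567 and 699.9 RPKM in polyclonal chronic and 4.43, 3.95 and 4.91 RPKM in vehicle chronic libraries (log2 difference 6.90, SE 0.12, adjusted p = 2.35e-20). H2-Aa, the alpha chain gene of the I-A molecule, was at 237, 199 and 242 RPKM in polyclonal chronic and 0.411, 0.533 and 0.555 RPKM in vehicle chronic libraries (log2 difference 7.24, SE 0.21, adjusted p = 1.41e-16). H2-Eb1, a beta chain gene of I-E, was at 158, 129 and 160.0 RPKM in polyclonal chronic and 0.676, 0.615 and 0.356 RPKM in vehicle chronic libraries (log2 difference 6.60, SE 0.24, adjusted p = 4.24e-15). Library 2 was the lowest of the polyclonal chronic libraries in all 3 genes, and all 3 of its values lay far above the vehicle chronic ones. H2-Aa and H2-Eb1 passed the filter only through the polyclonal chronic libraries, so their separation was fixed. Polyclonal acute libraries summed to 83.3 to 109 RPKM for the list and OT-I chronic libraries to 1242 to 1289 RPKM, so the level in polyclonal chronic libraries was about that of libraries with melanoma cells, of which they held the small share given above.

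The promoters of H2-Aa and H2-Eb1 are shown because both genes moved together and because MHC class II promoters are known for a shared box that reads CCAAT on 1 strand and ATTGG on the other. They are the 250 bases before the start of each gene, 5′ to 3′ on the gene's strand, from RefSeq (build GRCm38.p6), at chr17:34287824-34288073 on the minus strand and chr17:34305617-34305866 on the plus strand. Capitals mark ATTGG and its reverse complement.
H2-Aa: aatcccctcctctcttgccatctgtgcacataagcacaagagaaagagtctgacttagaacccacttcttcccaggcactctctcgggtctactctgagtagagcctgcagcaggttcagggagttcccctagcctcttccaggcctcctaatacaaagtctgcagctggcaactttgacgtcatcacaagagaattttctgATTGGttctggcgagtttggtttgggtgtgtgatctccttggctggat
H2-Eb1: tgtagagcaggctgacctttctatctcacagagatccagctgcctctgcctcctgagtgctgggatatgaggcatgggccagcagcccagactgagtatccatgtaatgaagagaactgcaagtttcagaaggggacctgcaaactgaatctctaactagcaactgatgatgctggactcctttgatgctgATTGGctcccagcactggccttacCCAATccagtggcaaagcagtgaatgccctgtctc
H2-Aa holds the box 1 time and H2-Eb1 holds it 2 times, all within the last 100 bases before the start. The same letters, on either strand, occur in 33.8% of 32851 promoter windows of this length, so a match is a description of the sequence.

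Markers of other cells did not move in 1 direction. Of 9 measured myeloid genes 1 was higher and 5 lower, and the list summed to 72.4 to 79.5 RPKM in polyclonal chronic and 357 to 375 RPKM in vehicle chronic libraries. Most of the vehicle chronic sum was Fcer1g, at 286, 299 and 285 RPKM. Mpeg1, a perforin-like gene of macrophages, was higher (5.16 ± 0.212 RPKM in polyclonal chronic and 0.0183 ± 0.00786 RPKM in vehicle chronic cells), and Fcer1g, a signalling chain gene of myeloid and NK cells, was lower (32.4 ± 4.28 RPKM in polyclonal chronic and 289.8 ± 7.54 RPKM in vehicle chronic cells). Of 5 mast cell and basophil genes 4 were lower, led by the growth factor receptor gene Kit (0.296 ± 0.286 RPKM in polyclonal chronic and 13.8 ± 0.101 RPKM in vehicle chronic cells), and the histamine enzyme gene Hdc was higher (log2 difference 2.55). Of the gamma-delta T cell list only Blk and Maf were measured, and both belong to other lists here. Of 12 melanocyte genes 5 were measured, and all 5 were higher, among them Gpnmb, a gene that macrophages also express (28.1 ± 0.507 RPKM in polyclonal chronic and 0.538 ± 0.0299 RPKM in vehicle chronic cells). Mpeg1, Kit, Hdc, Gpnmb and the melanocyte genes Tyrp1, Mlana and Dct were under 1 RPKM in all libraries of their lower group. The filter therefore fixed their direction. No gene of the erythroid list reached the level required. The part of these other cells in the other differences was not tested.

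Among regulatory T cell genes, 8 of 12 were higher and 3 lower, with a median of 0.75. The defining factor gene Foxp3 was below the level required, at 0.378, 0.461 and 0.185 RPKM in polyclonal chronic and 0.718, 0.697 and 0.574 RPKM in vehicle chronic libraries. Il2ra, the IL-2 receptor alpha chain gene, was at 606 ± 16.8 RPKM in polyclonal chronic and 346 ± 6.22 RPKM in vehicle chronic cells (log2 difference 0.81, SE 0.051, adjusted p = 2.77e-11). Ebi3, a subunit gene of interleukins 27 and 35, was also higher (log2 difference 2.67). Ikzf2, which encodes the factor Helios, was lower, at 3.74 ± 0.316 RPKM in polyclonal chronic and 35.2 ± 0.769 RPKM in vehicle chronic cells.

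Cytokine RNA differed in kind. All 10 measured genes of the type 2 helper list were higher in polyclonal chronic cells, with a median of 2.00. Il4, the cytokine gene that drives the type 2 programme, was at 106, 118 and 132 RPKM in polyclonal chronic and 1.64, 1.69 and 1.76 RPKM in vehicle chronic libraries (log2 difference 5.46, SE 0.21, adjusted p = 1.16e-14). Il5, which supports eosinophils, was at 378, 363 and 409 RPKM in polyclonal chronic and 21.6, 23.9 and 25.8 RPKM in vehicle chronic libraries (log2 difference 3.96, SE 0.2, adjusted p = 6.59e-13). Il13 was at 1159, 999.8 and 1222 RPKM in polyclonal chronic and 192, 196 and 217 RPKM in vehicle chronic libraries (log2 difference 2.47, SE 0.22, adjusted p = 8.49e-09). In these genes the lowest polyclonal chronic library lay above the highest vehicle chronic library, and Il13 was far from silent in vehicle chronic cells. The factors of the type 2 programme rose with them: Gata3 was at 121 ± 3.46 RPKM in polyclonal chronic and 41.6 ± 0.954 RPKM in vehicle chronic cells, and Maf at 97.5 ± 1.39 RPKM in polyclonal chronic and 6.99 ± 0.353 RPKM in vehicle chronic cells. The Il4 and Il13 promoters are shown because these neighbouring cytokine genes moved together and because such promoters are known targets of NFAT, a factor activated by the T cell receptor. They are the 250 bases before each start from the same source, at chr11:53618666-53618915 and chr11:53634703-53634952, both on the minus strand. Capitals mark GGAAA, the core letters of NFAT sites, and its reverse complement TTTCC.
Il4: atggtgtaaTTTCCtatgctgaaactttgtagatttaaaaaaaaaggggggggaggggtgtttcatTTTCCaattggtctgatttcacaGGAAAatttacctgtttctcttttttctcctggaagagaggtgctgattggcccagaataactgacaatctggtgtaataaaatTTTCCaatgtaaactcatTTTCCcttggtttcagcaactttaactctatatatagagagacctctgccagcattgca
Il13: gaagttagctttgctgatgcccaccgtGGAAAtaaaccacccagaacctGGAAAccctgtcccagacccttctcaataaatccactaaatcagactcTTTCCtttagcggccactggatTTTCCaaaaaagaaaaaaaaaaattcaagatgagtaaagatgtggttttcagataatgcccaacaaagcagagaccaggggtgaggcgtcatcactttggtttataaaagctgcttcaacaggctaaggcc
Il4 holds these letters 5 times and Il13 holds them 4 times, and 55.6% of the 32851 windows hold them at least 1 time.

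Other cytokines followed several patterns. Of 22 cytokine genes 13 were higher and 7 lower, with a median of 1.13. Il10, which restrains inflammation, was at 367, 376 and 398 RPKM in polyclonal chronic and 41.96, 41.4 and 41.9 RPKM in vehicle chronic libraries (log2 difference 3.16, SE 0.18, adjusted p = 3.81e-12). Il21, the cytokine gene of follicular helper cells, was at 47.9, 52.1 and 52.4 RPKM in polyclonal chronic and 0.868, 0.789 and 0.822 RPKM in vehicle chronic libraries (log2 difference 4.82, SE 0.12, adjusted p = 5.78e-18). Il24, of the same cytokine family as Il10, was at 246 ± 9.66 RPKM in polyclonal chronic and 19.8 ± 2.43 RPKM in vehicle chronic cells, and Il17a, the gene of type 17 cells, at 19.99 ± 3.19 RPKM in polyclonal chronic and 3.13 ± 0.270 RPKM in vehicle chronic cells. These 4 genes were higher in every polyclonal chronic library, which the filter fixed for Il21, and of 5 type 17 genes 4 were higher and 1 lower. Ifng, the interferon-γ gene of type 1 and killer cells, went the other way, at 119, 108 and 128 RPKM in polyclonal chronic and 432, 439 and 421 RPKM in vehicle chronic libraries (log2 difference -1.86, SE 0.079, adjusted p = 5.12e-14).

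The follicular helper list had the highest median of the lists with 5 or more measured genes (3.62), with 11 of 15 genes higher and 3 lower. Several of its genes are also B cell genes or stand in other lists here. Cxcr5, the receptor gene that leads B cells and follicular helper cells into follicles, was at 28.9, 27.4 and 28.1 RPKM in polyclonal chronic and 0.240, 0.240 and 0.295 RPKM in vehicle chronic libraries (log2 difference 4.53, SE 0.091, adjusted p = 3.01e-19). Pou2af1, Cd40lg and Il21, given above, completed the 4 most changed members. Cxcr5, Cd40lg and Il21 passed the filter only through the polyclonal chronic libraries, so they had to differ. Bcl6, the defining factor of follicular helper cells, was slightly lower (log2 difference -0.26), as were Icos (-0.59) and Pdcd1. Bcl6 and Icos were named after their values were seen.

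Chemokine genes held the most extreme values in both directions. Ccl22, which attracts CCR4-bearing T cells, was at 937, 891 and 986 RPKM in polyclonal chronic and 0.0346, 0.0630 and 0.229 RPKM in vehicle chronic libraries (log2 difference 9.73, SE 0.27, adjusted p = 5.17e-17), the largest positive difference of the 11071 genes. It passed the filter only through the polyclonal chronic libraries, so its direction was fixed. The related gene Ccl17 was at 21.3 ± 1.51 RPKM in polyclonal chronic and 0.915 ± 0.482 RPKM in vehicle chronic cells, and Ccl1, the CCR8 ligand gene, at 183 ± 13.9 RPKM in polyclonal chronic and 53.7 ± 1.85 RPKM in vehicle chronic cells. Xcl1, which attracts cross-presenting dendritic cells, was at 0.924, 2.06 and 1.45 RPKM in polyclonal chronic and 567, 560.3 and 572 RPKM in vehicle chronic libraries (log2 difference -7.87, SE 0.12, adjusted p = 4.43e-21), the largest negative difference of the 11071 genes. Of 10 chemokine genes 7 were higher and 2 lower (1 lower without polyclonal chronic library 2).

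Hormone genes seldom studied in T cells were among the highest differences. Pth, the parathyroid hormone gene, was at 716, 682 and 774 RPKM in polyclonal chronic and 4.02, 5.01 and 5.30 RPKM in vehicle chronic libraries (log2 difference 6.98, SE 0.19, adjusted p = 3.23e-17). Gal, the gene of the neuropeptide galanin, was at 186, 156 and 206 RPKM in polyclonal chronic libraries and at 0, 0.0724 and 0 RPKM in vehicle chronic ones (log2 difference 7.48, SE 0.19, adjusted p = 1.05e-17). Akr1c18, a steroid-metabolising enzyme gene, was at 1266, 1254 and 1370.2 RPKM in polyclonal chronic and 32.8, 33.5 and 35.8 RPKM in vehicle chronic libraries (log2 difference 5.21, SE 0.22, adjusted p = 4.22e-14). Each was high in all 3 polyclonal chronic libraries and low in all vehicle chronic ones. Gal passed the filter only through the polyclonal chronic libraries, so its direction was fixed. Nts, the neurotensin gene, followed with 33.7 ± 2.59 RPKM in polyclonal chronic and 0.132 ± 0.0719 RPKM in vehicle chronic cells. Of 10 measured genes of this list 5 were higher and 3 lower.

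Among the 12 highest and 12 lowest differences were also genes outside these groups. Ly6c1, a surface antigen gene of lymphocytes and a near copy of Ly6c2, was at 149, 138 and 162 RPKM in polyclonal chronic and 1.14, 1.49 and 1.23 RPKM in vehicle chronic libraries (log2 difference 6.04, SE 0.089, adjusted p = 3.25e-21), while Ly6c2 was lower, and reads may be split between the copies. Ctsg, the gene of the granule protease cathepsin G, fell to 0.593 ± 0.291 RPKM in polyclonal chronic cells, against 25.8 ± 1.08 RPKM in vehicle chronic cells. Cables1 (log2 difference -3.84) and the kinase gene Styk1 (-3.80) were the other lower ones. All 3 libraries of each group lay apart in these genes, which the filter fixed for Ctsg and Cables1.

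**Figure D2:**
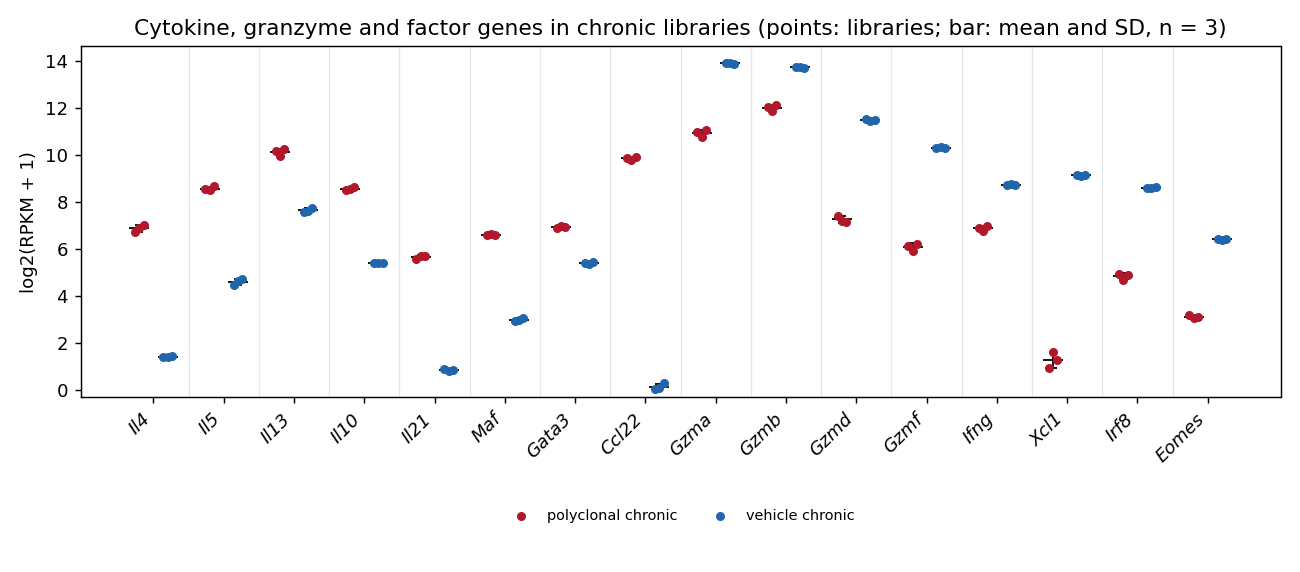
Levels of cytokine, chemokine, granzyme and transcription factor genes as log2(RPKM + 1), with 1 point per library and bars for the mean and SD of 3 libraries, polyclonal chronic left and vehicle chronic right. From Il4 to Ccl22 the polyclonal chronic libraries are higher, and from Gzma to Eomes the vehicle chronic libraries are higher, with no overlap in the 16 genes. For Il21 and Ccl22 the filter fixed this lack of overlap.

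The granule proteases were lower in polyclonal chronic cells. Of 20 measured granzyme and cytotoxic granule genes 16 were lower and 3 higher, with a median of -2.22. Gzma was at 2039, 1774 and 2138 RPKM in polyclonal chronic and 15817, 15817 and 15280.4 RPKM in vehicle chronic libraries (log2 difference -2.98, SE 0.09, adjusted p = 1.99e-16), and it took 0.156 to 0.188% of all reads in polyclonal chronic and 1.34 to 1.39% in vehicle chronic libraries. Gzmb, the main death-inducing protease gene, was at 4218, 3772 and 4484 RPKM in polyclonal chronic and 13708, 13902 and 13485 RPKM in vehicle chronic libraries (log2 difference -1.72, SE 0.11, adjusted p = 3.48e-11). Prf1, which encodes the pore-forming protein perforin, was at 326, 281 and 323 RPKM in polyclonal chronic and 1381, 1379 and 1413 RPKM in vehicle chronic libraries (log2 difference -2.17, SE 0.077, adjusted p = 2.94e-15). Gzmb nonetheless remained among the abundant RNAs of the polyclonal chronic libraries.

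Granzyme genes that lie in a rodent cluster beside Gzmb changed more than Gzma and Gzmb did. Gzmd was at 173, 149 and 144 RPKM in polyclonal chronic and 2955, 2862 and 2885 RPKM in vehicle chronic libraries (log2 difference -4.22, SE 0.081, adjusted p = 1.62e-19). Gzmf was at 70.7, 59.99 and 73.1 RPKM in polyclonal chronic and 1286, 1313 and 1255 RPKM in vehicle chronic libraries (log2 difference -4.23, SE 0.13, adjusted p = 1.69e-16). Gzme and Gzmg moved alike (log2 differences -3.70 and -3.65), and in all 4 genes every vehicle chronic library lay above every polyclonal chronic library. These genes are near copies of each other, so reads may be split between them. Their promoters are copies too: over the 250 bases before the start, aligned with gaps, Gzmd was 94.8% identical to Gzme and 74.5% to Gzmf. The promoters of Gzmd and Gzmf, the least alike pair of the 4, are shown with the letters TGTGGT (reverse complement ACCACA) in capitals, the core read by RUNX factors, which are known to act at cytotoxic genes. They lie at chr14:56132594-56132843 and chr14:56211408-56211657, both on the minus strand of the same build.
Gzmd: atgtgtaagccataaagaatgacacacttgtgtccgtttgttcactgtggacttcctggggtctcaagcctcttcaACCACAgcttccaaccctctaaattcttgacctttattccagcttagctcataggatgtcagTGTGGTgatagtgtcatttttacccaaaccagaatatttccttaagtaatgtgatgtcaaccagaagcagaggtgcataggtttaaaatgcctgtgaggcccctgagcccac
Gzmf: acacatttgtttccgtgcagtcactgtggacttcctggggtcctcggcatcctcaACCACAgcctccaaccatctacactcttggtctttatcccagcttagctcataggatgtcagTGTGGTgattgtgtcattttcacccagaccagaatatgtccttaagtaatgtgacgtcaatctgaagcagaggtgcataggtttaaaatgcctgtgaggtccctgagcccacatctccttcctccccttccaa
Each holds the letters 2 times, and 14.0% of the 32851 windows hold them at least 1 time. Serpinb9b, a gene of the granzyme inhibitor family, fell with the proteases, to 43.98 ± 2.77 RPKM in polyclonal chronic cells, against 833 ± 17.03 RPKM in vehicle chronic cells. Fasl, the death ligand gene, was lower too (log2 difference -2.27).

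Factors of the killer and type 1 programme were mostly lower. Of 16 type 1 and effector genes 10 were lower and 4 higher, with a median of -0.57. Eomes, a T-box factor gene of CD8 T cells, was at 8.24, 7.41 and 7.64 RPKM in polyclonal chronic and 85.7, 84.4 and 85.00 RPKM in vehicle chronic libraries (log2 difference -3.30, SE 0.04, adjusted p = 2.44e-22). Tbx21, which encodes the related factor T-bet, was at 35.3 ± 1.15 RPKM in polyclonal chronic and 73.5 ± 2.56 RPKM in vehicle chronic cells (log2 difference -1.04, SE 0.05, adjusted p = 3.29e-13). Il18rap, a subunit gene of the interleukin 18 receptor, was lower (log2 difference -2.42), and the homeobox gene Hlx was higher (2.88). The 25 factors of chronic stimulation and effector state had 10 higher and 13 lower. Irf8 was at 29.6, 24.7 and 29.5 RPKM in polyclonal chronic and 389, 390.5 and 398 RPKM in vehicle chronic libraries (log2 difference -3.77, SE 0.074, adjusted p = 2.47e-19), although B cells, whose genes were higher, are known to express it. Tox, the HMG-box factor gene of exhausted cells, was low in both groups, at 1.27, 1.22 and 1.30 RPKM in polyclonal chronic and 0.791, 0.560 and 0.999 RPKM in vehicle chronic libraries, with adjusted p = 0.0403 that did not hold when replicate numbers were blocked (adjusted p = 0.0699) or when any 1 of 5 of the 6 libraries was left out (0.0597 to 0.177).

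Inhibitory receptors did not rise as a group. Of 19 measured genes 10 were higher and 8 lower, with a median of 0.29. Pdcd1, the PD-1 gene, was at 55.3, 47.3 and 55.3 RPKM in polyclonal chronic and 207, 214 and 213 RPKM in vehicle chronic libraries (log2 difference -1.99, SE 0.076, adjusted p = 8.42e-15). Havcr2, the TIM-3 gene, was at 84.4, 89.05 and 85.7 RPKM in polyclonal chronic and 199, 203 and 204 RPKM in vehicle chronic libraries (log2 difference -1.22, SE 0.046, adjusted p = 7.41e-15). Lag3 was at 312, 284 and 316 RPKM in polyclonal chronic and 349.6, 358 and 352 RPKM in vehicle chronic libraries, a small difference (log2 difference -0.22, SE 0.064, adjusted p = 0.0066). Vehicle chronic cells thus had the higher level of all 3 receptors most used to describe exhaustion. Btla and Cd200 were among the higher members: Btla was at 67.3 ± 8.66 RPKM in polyclonal chronic and 4.39 ± 0.416 RPKM in vehicle chronic cells, and Cd200 at 69.3 ± 1.39 RPKM in polyclonal chronic and 11.5 ± 0.770 RPKM in vehicle chronic cells.

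Costimulatory receptors divided in the same way, with 8 of 16 higher and 7 lower. Slamf6, a receptor gene of B cells and less differentiated T cells, was at 22.8, 22.7 and 20.9 RPKM in polyclonal chronic and 0.513, 0.420 and 0.364 RPKM in vehicle chronic libraries (log2 difference 4.01, SE 0.1, adjusted p = 1.53e-17). Slamf6 passed the filter only through the polyclonal chronic libraries, so its direction was fixed. Its relative Slamf1 was also higher (log2 difference 2.19). Tnfrsf9, which encodes 4-1BB, was lower, at 337 ± 15.2 RPKM in polyclonal chronic and 905 ± 10.8 RPKM in vehicle chronic cells. Memory and self-renewal genes had 6 of 20 higher and 12 lower. Tcf7, the factor gene of memory and stem-like cells, was low in both groups (2.59 ± 0.283 RPKM in polyclonal chronic and 3.50 ± 0.354 RPKM in vehicle chronic cells, log2 difference -0.33).

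Receptors that place cells and sense cytokines moved in both directions. Of 18 homing and chemokine receptors 8 were higher and 10 lower. Besides Cxcr5, the gene of the retention receptor Cxcr4 was higher (40.5 ± 3.14 RPKM in polyclonal chronic and 10.8 ± 0.331 RPKM in vehicle chronic cells), as was Gpr183, a receptor gene that guides B and helper cells (log2 difference 2.09). Integrin genes had 11 of 18 members of their list higher and 5 lower: Itgb7, a gut-homing chain, was at 60.1 ± 4.15 RPKM in polyclonal chronic and 11.6 ± 0.653 RPKM in vehicle chronic cells, while Itgb3 was lower (log2 difference -1.98). Cytokine receptors had 12 of 26 higher and 10 lower. Csf2rb, the shared chain gene of the interleukin 3, interleukin 5 and GM-CSF receptors, was at 16.5 ± 0.227 RPKM in polyclonal chronic and 0.285 ± 0.0507 RPKM in vehicle chronic cells, and its close copy Csf2rb2 moved alike (log2 difference 2.96), though reads may be split between them.

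Among feedback genes of signalling, 13 of 23 were higher and 9 lower. Spry2, an inhibitor of Ras signalling, was at 3.29, 3.84 and 4.46 RPKM in polyclonal chronic and 73.4, 74.8 and 74.5 RPKM in vehicle chronic libraries (log2 difference -3.96, SE 0.069, adjusted p = 4.27e-20). Socs2 and Socs3, inhibitors of cytokine signalling, were higher, with Socs2 at 59.2 ± 1.53 RPKM in polyclonal chronic and 6.88 ± 0.0514 RPKM in vehicle chronic cells and Socs3 at 56.2 ± 1.73 RPKM in polyclonal chronic and 13.3 ± 0.819 RPKM in vehicle chronic cells. Genes of the proximal receptor pathway had 6 of 27 higher and 13 lower, led by the kinase gene Txk (log2 difference -2.52) and the inhibitory adaptor gene Sla2 (-1.49). Immediate early genes had 9 of 13 lower and 3 higher. Nr4a1, an orphan receptor gene induced by receptor signals, was at 17.2, 17.2 and 17.5 RPKM in polyclonal chronic and 38.97, 40.1 and 41.5 RPKM in vehicle chronic libraries (log2 difference -1.17, SE 0.069, adjusted p = 9.49e-12).

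Interferon-induced genes were higher almost without exception. Of 29 type I interferon-stimulated genes 27 were higher and 2 lower (Ifit2 and Ly6c2, named after their values were seen), with a median of 1.65. Ifi44 was at 8.04, 9.38 and 8.72 RPKM in polyclonal chronic and 0, 0.0588 and 0.0408 RPKM in vehicle chronic libraries (log2 difference 3.23, SE 0.095, adjusted p = 1.31e-16). It passed the filter only through the polyclonal chronic libraries. Oas3, an RNA sensor gene, was at 44.8 ± 0.210 RPKM in polyclonal chronic and 5.98 ± 0.303 RPKM in vehicle chronic cells. All 14 measured interferon-γ-induced GTPase genes, which act against intracellular pathogens, were higher, with a median of 1.55. Iigp1 was at 40.6, 47.4 and 44.1 RPKM in polyclonal chronic and 1.02, 1.39 and 1.35 RPKM in vehicle chronic libraries (log2 difference 4.32, SE 0.073, adjusted p = 2.14e-20), and Gbp2 was at 110.3, 113 and 116 RPKM in polyclonal chronic and 16.4, 16.2 and 15.8 RPKM in vehicle chronic libraries (log2 difference 2.73, SE 0.04, adjusted p = 3.25e-21). These GTPase genes were higher although Ifng itself was lower. MHC class I genes had 13 of 15 higher and none lower, with a smaller median of 0.60, and B2m, its light chain gene, was at 3956 ± 237 RPKM in polyclonal chronic and 1883 ± 31.3 RPKM in vehicle chronic cells. Some GTPase, Oas and MHC genes are close copies among which reads may be split.

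Cell division genes differed little in the chronic comparison. Of 32 DNA replication genes 5 were higher and 14 lower (median -0.13), and of 30 mitosis genes 2 were higher and 20 lower (median -0.19). The centromere histone gene Cenpa had the largest difference of both lists, at 47.7 ± 1.26 RPKM in polyclonal chronic and 127 ± 2.66 RPKM in vehicle chronic cells, and the cyclin gene Ccnb2 was at 38.5 ± 2.49 RPKM in polyclonal chronic and 54.3 ± 3.37 RPKM in vehicle chronic cells. Replication-dependent histone genes had 1 of 10 higher and 5 lower. Mki67, the proliferation marker, was at 71.6, 72.9 and 68.3 RPKM in polyclonal chronic and 77.5, 76.6 and 78.5 RPKM in vehicle chronic libraries and did not pass (adjusted p = 0.216), although it did with only the compared groups in the fit (adjusted p = 0.0251). Without vehicle chronic library 2, 9 replication genes were lower, and the higher counts of both lists are as small as 3 and 0 when single libraries are left out. Cytosolic ribosomal proteins had 31 of 73 lower and 4 higher (median -0.33), and the respiratory chain and ATP synthase 43 of 73 lower and 4 higher (median -0.30). Between polyclonal acute and vehicle acute cells no gene of these lists was higher. All of these lists but the histone list lay lower still. The histone median was -0.50 in the chronic comparison and -0.38 between the acute cells. There 32 of 32 replication genes (median -0.77) and 26 of 30 mitosis genes (-0.35) were lower. So were 47 of 73 ribosomal protein genes (-0.51) and 68 of 73 respiratory chain and ATP synthase genes (-0.59). Ndufa1, a complex I subunit gene, was at 16.8, 11.3 and 18.1 RPKM in polyclonal chronic and 52.3, 54.7 and 51.4 RPKM in vehicle chronic libraries (log2 difference -1.74, SE 0.14, adjusted p = 1.48e-09). Gene length moved with these values: with the genes split into 5 equal classes by length, the median difference was -0.18 in the shortest class and 0.12 in the longest, and in the acute comparison it was -0.25 in the shortest and 0.24 in the longest class. The part of length in these lists was not tested.

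Chaperone genes of the endoplasmic reticulum were moderately higher, with 17 of 26 higher and 2 lower (median 0.24). Xbp1, a factor gene of the unfolded protein response that plasma cells need, was at 189 ± 6.27 RPKM in polyclonal chronic and 92.02 ± 1.90 RPKM in vehicle chronic cells, and the chaperone gene Hsp90b1 was at 705 ± 42.7 RPKM in polyclonal chronic and 374 ± 3.91 RPKM in vehicle chronic cells. Cytosolic heat shock genes had 7 of 14 higher and 1 lower, led by Hsp90aa1 (log2 difference 1.14). Glucose transport and glycolysis genes had 14 of 24 higher and 4 lower, and the transporter gene Slc2a3 was at 217 ± 6.99 RPKM in polyclonal chronic and 109 ± 3.04 RPKM in vehicle chronic cells. In the TCA cycle 6 of 23 were higher and 7 lower, and Idh2, a mitochondrial isocitrate dehydrogenase gene, was at 23.7 ± 2.10 RPKM in polyclonal chronic and 7.31 ± 0.173 RPKM in vehicle chronic cells. The ATF4 and amino acid response had 5 of 27 higher and 12 lower.

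**Figure D3:**
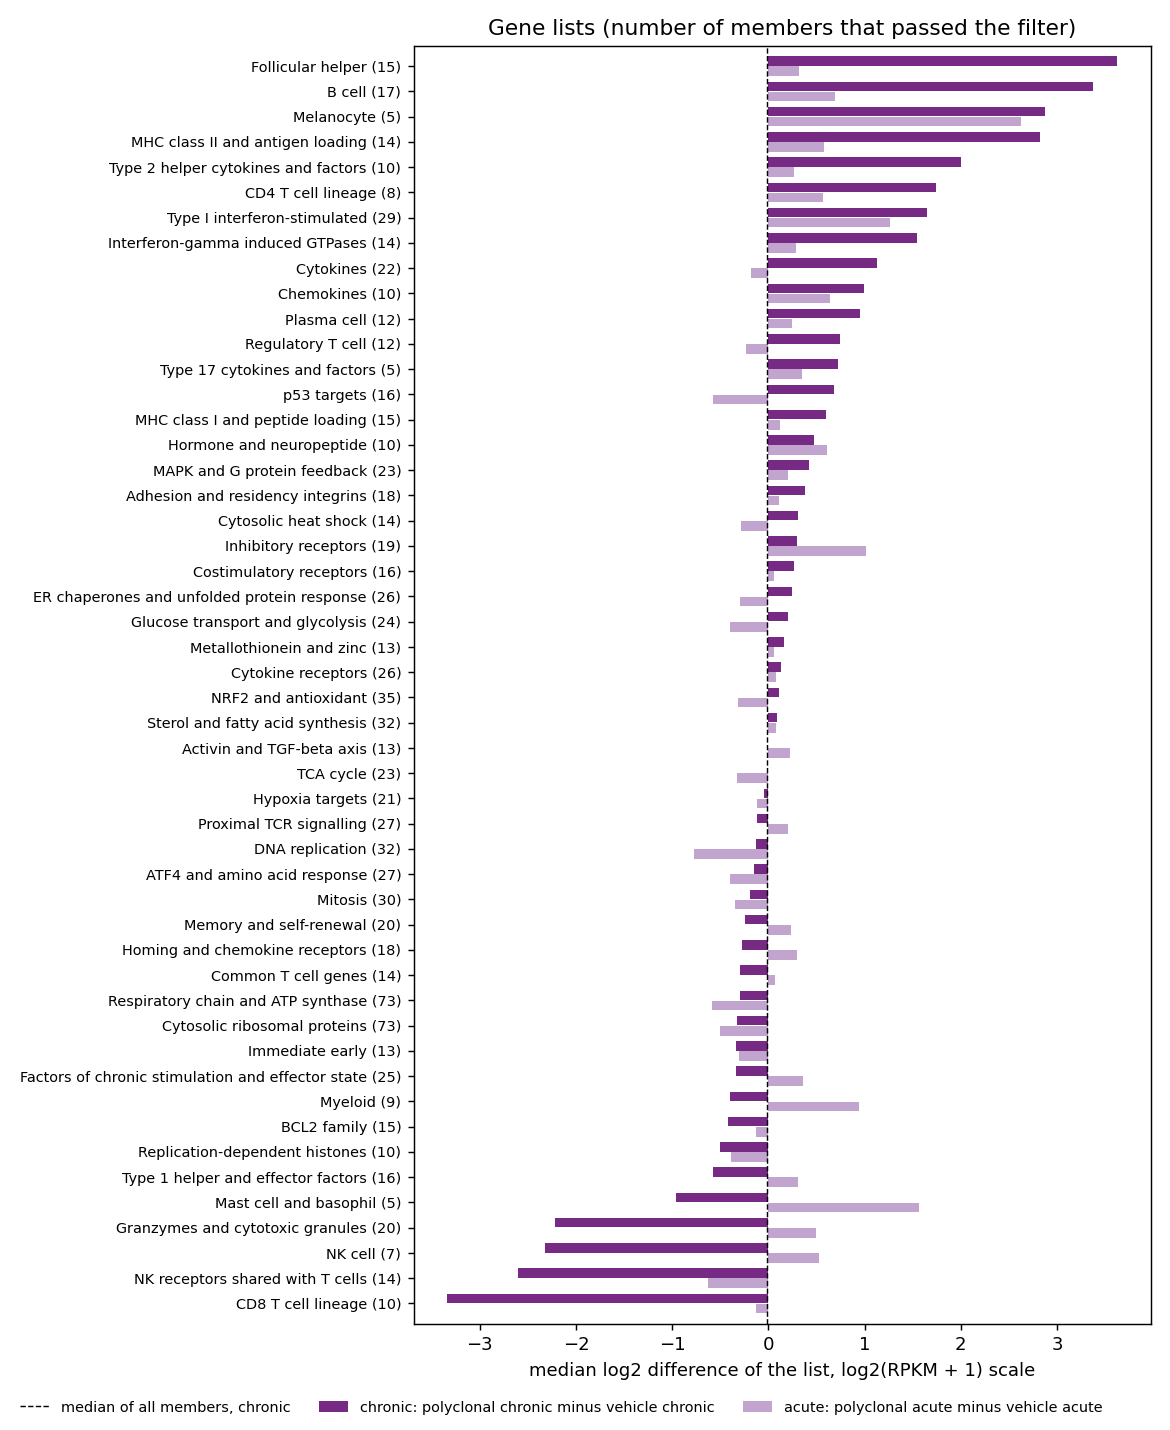
Median log2 difference of each gene list with 5 or more measured genes (numbers in brackets), dark bars for polyclonal chronic minus vehicle chronic and light bars for polyclonal acute minus vehicle acute, with the median of all 11071 genes as a dashed line. Follicular helper, B cell, melanocyte and MHC class II lists lie at 2.83 or more in the chronic comparison, and CD8 lineage and NK receptor lists at -2.61 or less. The acute bars of these lists are shorter, but that of the melanocyte list is nearly as long (2.63 in acute and 2.88 in chronic cells).

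The same experiments also gave acute cells, which show what differed between them without repeated stimulation. Between polyclonal acute and vehicle acute cells 7255 of the 11071 genes were called (65.5%, against 64.5% of all genes tested), 3699 higher (33.4%) and 3556 lower (32.1%), but only 301 were at least 2-fold higher (2.72%) and 203 at least 2-fold lower (1.83%), and 36 genes reached a log2 difference of 2 or more and 14 one of -2 or less. Each comparison has its own libraries. The difference of differences, chronic minus acute, passed for 6444 genes (58.2%, against 52.4% of all genes tested), 3381 positive (30.5%) and 3063 negative (27.7%). Of the 775 genes that were at least 2-fold higher in polyclonal chronic cells, the acute comparison called 437 higher and 125 lower, and 213 were not called. Of the 432 genes at least 2-fold lower, the acute comparison called 109 lower and 218 higher, and 105 were not called.

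Coreceptor RNA already differed in acute cells, but otherwise than in chronic cells. Cd4 averaged 67.5 ± 2.99 RPKM in polyclonal acute and 13.9 ± 0.888 RPKM in vehicle acute cells (log2 difference 2.20, SE 0.097, adjusted p = 4.87e-13), and the difference of differences was 4.33 (SE 0.14, adjusted p = 7.48e-16). Cd8a averaged 101 ± 0.556 RPKM in polyclonal acute and 87.1 ± 1.76 RPKM in vehicle acute cells (log2 difference 0.21, SE 0.036, adjusted p = 4.75e-05), so it was slightly higher there and not lower as in chronic cells (difference of differences -4.16, SE 0.051, adjusted p = 6.69e-22). Polyclonal acute cells thus had more Cd8a than Cd4 RNA per length. Of the 17 B cell genes 13 were higher and 1 lower in polyclonal acute cells (median 0.69), and of the 14 MHC class II genes 9 were higher and 1 lower (median 0.58). Cd79a averaged 1.37 ± 0.763 RPKM in polyclonal acute and 0.416 ± 0.150 RPKM in vehicle acute cells, and Cd74 averaged 2.97 ± 0.902 RPKM in polyclonal acute and 1.56 ± 0.192 RPKM in vehicle acute cells (adjusted p = 0.00248 for Cd79a and 0.000169 for Cd74).

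Gzmd, Prf1, Pdcd1 and Lag3 turned their direction between the states, whereas Gzmb was lower in polyclonal cells in both (log2 difference -1.72 in chronic and -0.85 in acute cells). Gzmd averaged 103 ± 2.80 RPKM in polyclonal acute and 17.3 ± 2.68 RPKM in vehicle acute cells (log2 difference 2.51, SE 0.081, adjusted p = 5.19e-15), the opposite of chronic cells (difference of differences -6.74, SE 0.11, adjusted p = 1.28e-19). Prf1 averaged 259.7 ± 21.5 RPKM in polyclonal acute and 68.95 ± 9.63 RPKM in vehicle acute cells, with a difference of differences of -4.07 (SE 0.11, adjusted p = 6.44e-17). Pdcd1 averaged 30.98 ± 2.12 RPKM in polyclonal acute and 8.18 ± 0.627 RPKM in vehicle acute cells, with a difference of differences of -3.79 (SE 0.11, adjusted p = 1.3e-16). For Lag3 the acute means were 101 ± 5.42 RPKM in polyclonal acute and 8.94 ± 0.349 RPKM in vehicle acute cells, and the difference of differences was -3.58 (SE 0.09, adjusted p = 2.76e-17). All 4 genes were thus higher in polyclonal than in vehicle cells in the acute state and lower in the chronic state. Of the 19 inhibitory receptors 15 were higher and 2 lower in polyclonal acute cells (median 1.02), against 10 higher and 8 lower in polyclonal chronic cells (median 0.29).

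Of the 10 type 2 genes 4 were higher and 2 lower in polyclonal acute cells (median 0.27), and Il4, Il5 and Il13 did not pass the test there. Il4 averaged 1.36 ± 0.590 RPKM in polyclonal acute and 1.23 ± 0.750 RPKM in vehicle acute cells (adjusted p = 0.694), and the adjusted p was 0.66 for Il5 and 0.838 for Il13. Gata3 and Maf were higher in polyclonal acute cells too (log2 differences 0.62 and 1.30). For Il4 the difference of differences was 5.37 (SE 0.3, adjusted p = 6.69e-12). Among the genes with the strongest positive difference of differences, Tgm2, the tissue transglutaminase gene, turned as well. It averaged 46.5 ± 3.56 RPKM in polyclonal chronic and 1.000 ± 0.120 RPKM in vehicle chronic cells, and 0.678 ± 0.485 RPKM in polyclonal acute and 8.004 ± 1.56 RPKM in vehicle acute cells (difference of differences 7.02, SE 0.2, adjusted p = 1.27e-16). Filip1 and Fcrl6, a receptor gene of cytotoxic lymphocytes, turned the other way: Filip1 averaged 10.1 ± 0.305 RPKM in polyclonal chronic and 59.6 ± 0.803 RPKM in vehicle chronic cells, and 10.4 ± 1.05 RPKM in polyclonal acute and 0.231 ± 0.0379 RPKM in vehicle acute cells. Tcf7 differed more in acute cells, at 48.8 ± 1.71 RPKM in polyclonal acute and 176 ± 17.1 RPKM in vehicle acute cells (log2 difference -1.82, SE 0.067, adjusted p = 3.54e-14) and lay under 5 RPKM in both chronic groups.

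**Figure D4:**
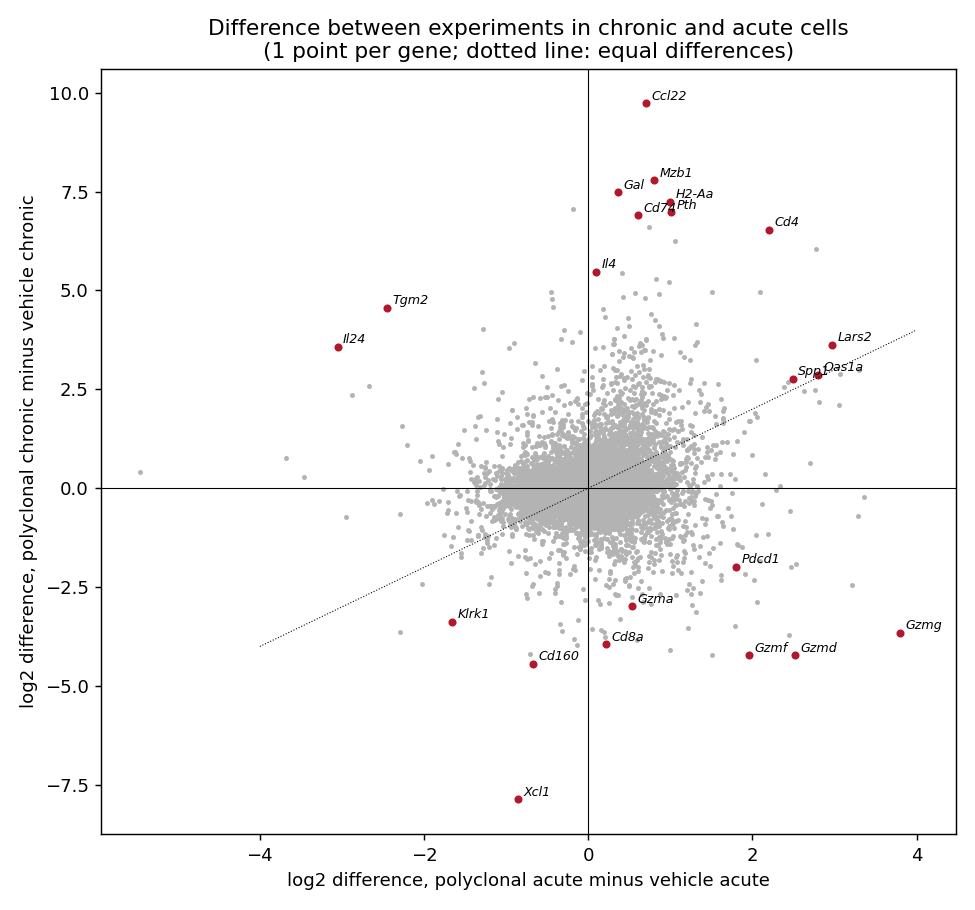
Difference between experiments in chronic cells (vertical axis, log2 difference) against that in acute cells (horizontal axis) for the 11071 genes, with 1 point per gene and a dotted line where both are equal. Ccl22, Mzb1, Gal and Cd74 lie high near the vertical axis, Xcl1 and Cd160 low near it, the Gzmd, Gzmf and Gzmg points at lower right, and Oas1a, Spp1 and Lars2 close to the line.

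A further set was at least 2-fold different in both states, with sizes that could differ between the states. Of the 775 genes at least 2-fold higher in chronic cells, 84 were also at least 2-fold higher in acute cells, and of the 432 at least 2-fold lower 29 were at least 2-fold lower in acute cells. The examples that follow were partly chosen after their values were seen. The antiviral gene Oas1a was at 19.2, 18.4 and 13.7 RPKM in polyclonal chronic and 1.63, 1.30 and 1.48 RPKM in vehicle chronic libraries, and at 13.5, 20.01 and 15.4 RPKM in polyclonal acute and 1.10, 1.55 and 1.75 RPKM in vehicle acute libraries, with log2 differences of 2.86 and 2.80. Slfn5, another interferon-induced gene, differed by 2.48 in chronic and 2.76 in acute cells. Spp1, the osteopontin gene, averaged 6379.6 ± 368 RPKM in polyclonal chronic and 932 ± 29.9 RPKM in vehicle chronic cells, and 321 ± 2.08 RPKM in polyclonal acute and 56.5 ± 5.86 RPKM in vehicle acute cells. The type I interferon list had 27 of 29 genes higher in acute cells too (median 1.26), whereas the interferon-γ GTPases had a median of only 0.29 there. Rplp2, a ribosomal protein gene, was lower in both states (log2 differences -1.30 in chronic and -1.24 in acute cells), and so was Ndufa1 (-1.74 and -1.55).

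Rn45s and Lars2, chosen after their values were seen, also differed in both states. Rn45s, the ribosomal RNA precursor, whose reads depend on how much of it poly(A) selection removed, was at 1493, 2003 and 434 RPKM in polyclonal chronic and 171, 163 and 171 RPKM in vehicle chronic libraries. Lars2, a mitochondrial leucyl-tRNA synthetase gene, was at 309.8, 429.9 and 106 RPKM in polyclonal chronic and 17.01, 19.4 and 19.4 RPKM in vehicle chronic libraries. Both were highest in library 2 and lowest in library 3 of the polyclonal chronic group, and no polyclonal chronic library fell within the vehicle chronic range. In polyclonal acute libraries both were highest in library 2 and lowest in library 1. Rn45s was there at 275, 2314 and 1673 RPKM and Lars2 at 54.5, 472 and 350 RPKM. Whether Lars2 differed apart from Rn45s was not tested. Rn45s no longer passed without polyclonal chronic library 1 (adjusted p = 0.0537) or library 2 (adjusted p = 0.0686), and its part in the other differences was not tested.

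**Figure D5:**
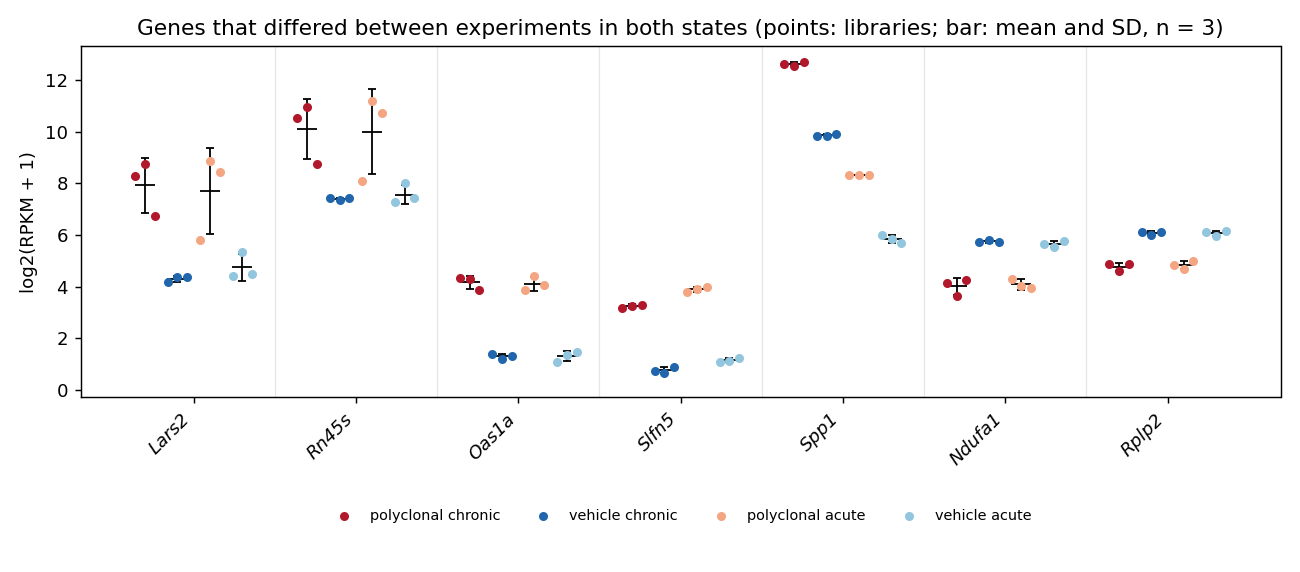
Levels of 7 genes that differed between the experiments in both states, as log2(RPKM + 1), with 1 point per library and bars for the mean and SD of 3 libraries, in the order polyclonal chronic, vehicle chronic, polyclonal acute and vehicle acute. Lars2 and Rn45s spread widely among the polyclonal libraries, Oas1a, Slfn5 and Spp1 are higher in polyclonal libraries of both states, and Ndufa1 and Rplp2 are lower.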

How the data were processed

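Poly(A)-selected RNA of 21 libraries in 7 groups of 3 was sequenced, and the authors deposited 1 table of RPKM values per gene. The tools HTSeq, edgeR and bcl2fastq (version 2.17) and the genome build mm9 are named in the submitters' processing notes; for the aligner, the annotation and the use of strand, nothing is given in the sources used here. In each library the RPKM values of all genes gave whole reads within 0.001 reads, from which depth was taken (reads in genes, 5347355 to 17539278 in the 4 groups used).

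The 12630 genes that reached 1 RPKM in 3 or more of 21 libraries were tested on log2(RPKM + 1) with limma (version 3.58.1, R 4.3.3), with 7 group means, a trended empirical Bayes variance, 14 residual degrees of freedom, two-sided tests and Benjamini-Hochberg adjustment over the genes tested. Calls required an adjusted p under 0.05 and were counted over the 11071 genes described. Means, SDs and counts per list were computed in Python 3.11.15 with pandas 2.3.3. The gene set and the 53 gene lists were chosen with earlier results of these data known. A gene named in the text was one of 28 chosen by name, one of up to 4 genes of a list with the largest difference among called genes whose groups did not overlap, one of the 12 highest or 12 lowest differences, or one of the 8 largest differences of differences in each direction; others are said to be chosen after their values were seen. "Measured" means that a listed gene passed the level of 1 RPKM in 3 of the 6 chronic libraries. The model was tested on simulated data. Alternatives were the pseudocount, the filter, the scaling, the libraries in the fit, a replicate block, a 2-fold threshold, voom on recovered reads and leaving out each library. The 12 pairs of libraries within the 4 groups differed by more than sampling noise (chi-square 1.74 to 24.3 per gene) and correlated across genes with r of 0.985 to 0.998. Each library was counted as 1 sample, although this spread may be technical. Promoter sequences were taken from a RefSeq table (GRCm38.p6), matched by symbol, and no coordinates were carried between builds.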

Additional observations from a re-analysis of the deposited data

Results flagged for a closer look

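The test of the difference of differences (polyclonal minus vehicle in chronic cells, less the same in acute cells) passed for 6444 of the 11071 genes (58.2%). Of the genes with the largest values, those on the positive side, all in log2 units, were Ccl22 (9.03), Pou2af1 (7.25), Gal (7.11), Tgm2 (7.02), Mzb1 (6.98), Il24 (6.63), Cd74 (6.28) and H2-Aa (6.24). Those on the negative side were Gzmg (-7.44), Xcl1 (-7.01), Gzmd (-6.74), Gzmf (-6.18), Gzme (-6.15), Serpinb9b (-5.73), Filip1 (-5.66) and Fcrl6 (-5.27). Adjusted p-values of these 16 genes in the limma fit lay between 1.28e-19 and 9.97e-12. Tgm2 averaged 46.5 ± 3.56 RPKM in polyclonal chronic and 1.000 ± 0.120 RPKM in vehicle chronic cells, and 0.678 ± 0.485 RPKM in polyclonal acute and 8.004 ± 1.56 RPKM in vehicle acute cells, so that it turned its direction. Groups of 3 libraries are too small to look for single libraries that stand apart within a gene.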

How the results depend on the processing

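The counts of called genes stayed within 1.5 times the reported ones under every alternative run except a stricter threshold. When a difference of more than 2-fold was tested (limma treat), 766 genes passed between polyclonal chronic and vehicle chronic cells (496 higher, 270 lower), 152 between polyclonal acute and vehicle acute cells (98 higher, 54 lower) and 787 in the difference of differences (403 higher, 384 lower). Leaving out each library in turn gave 6217 to 6595 chronic, 6433 to 7337 acute and 6004 to 6645 interaction calls. With a pseudocount of 0.1 the chronic count was 6822, with no filter 7226, with a filter of RPKM 5 it was 5714, with libraries rescaled to a common median 6871, with only the compared groups 6753, with voom on the recovered reads 7060, and without genes within the melanocyte share 6856. Without both polyclonal libraries numbered 2, an alternative chosen after seeing the data as was the last, the difference of differences had 6735 calls. The edgeR test planned on the recovered reads was not run, and voom was run on these reads instead.

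Replicate numbers did not pair the chronic libraries: the deviations of libraries with the same number correlated across genes with r of 0.00285, -0.0530 and -0.138. With the replicate number as a block, 6451 chronic, 6400 acute and 6312 interaction calls were made.

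Of the values for named genes under these alternatives, 2818 kept their call, 86 lost it, 5 gained it and 0 reversed. Most losses came with the 2-fold threshold. Under the other alternatives Tox (adjusted p = 0.0699 with the block), Inhba (adjusted p = 0.142 with a pseudocount of 0.1), Hist1h2ae and Rn45s (both without single libraries) lost their call, and the cause was not tested. Mki67 gained a call with only the compared groups and with voom, Foxp3 with rescaled libraries and without polyclonal chronic library 2, and Xist without polyclonal chronic library 3. Of the counts per list 1382 stayed within 1.5 times and 102 did not, most of them under the 2-fold threshold. The others were small counts, such as the ribosomal protein genes called higher (2 with rescaled libraries, 8 with the block, 4 reported) and the melanocyte genes (11 with no filter, 2 with a filter of RPKM 5, 5 reported). Depth limits genes near 1 RPKM, and the polyclonal libraries were the shallower ones.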

Other observations

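Several gene groups of cell survival and stress also differed. Of 16 p53 target genes 10 were higher and 5 lower in polyclonal chronic cells (median difference 0.68), whereas in acute cells none was higher and 13 were lower (median -0.57). Pmaip1, which encodes the death-promoting protein NOXA, was at 87.4, 89.6 and 89.97 RPKM in polyclonal chronic and 17.5, 18.1 and 16.7 RPKM in vehicle chronic libraries (log2 difference 2.29, SE 0.068, adjusted p = 1.71e-16). Fas, the death receptor gene, was at 16.3 ± 1.60 RPKM in polyclonal chronic and 5.70 ± 0.729 RPKM in vehicle chronic cells, and Plk2, a kinase gene of the same list, at 7.98 ± 0.670 RPKM in polyclonal chronic and 46.2 ± 0.715 RPKM in vehicle chronic cells. The BCL2 family had 4 of 15 higher and 9 lower: the survival gene Bcl2l1 was at 60.5 ± 4.29 RPKM in polyclonal chronic and 27.4 ± 0.982 RPKM in vehicle chronic cells, and Bcl2l11, which encodes the death-promoting protein BIM, at 11.96 ± 0.392 RPKM in polyclonal chronic and 42.2 ± 0.446 RPKM in vehicle chronic cells.

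Genes of redox control and metals split. Of 35 NRF2 and antioxidant genes 14 were higher and 12 lower, with Prdx4, a peroxiredoxin gene of the endoplasmic reticulum, at 60.5 ± 2.53 RPKM in polyclonal chronic and 16.3 ± 1.41 RPKM in vehicle chronic cells and Prdx5, a mitochondrial one, at 124 ± 16.3 RPKM in polyclonal chronic and 401 ± 12.1 RPKM in vehicle chronic cells. Metallothionein and zinc genes had 6 of 13 higher and 4 lower, and Mt2 was at 141 ± 11.3 RPKM in polyclonal chronic and 209.6 ± 10.8 RPKM in vehicle chronic cells. Sterol and fatty acid synthesis had 13 of 32 higher and 5 lower, led by the desaturase gene Scd1 and the isomerase gene Idi1 (log2 differences 0.78 and 0.89). Of 21 hypoxia targets 9 were higher and 8 lower, among them Egln3, an oxygen-sensing hydroxylase gene, at 55.02 ± 2.05 RPKM in polyclonal chronic and 15.3 ± 0.993 RPKM in vehicle chronic cells. In the activin and TGF-beta axis, with 6 of 13 higher and 4 lower, Smad3 was at 8.91 ± 0.384 RPKM in polyclonal chronic and 2.53 ± 0.120 RPKM in vehicle chronic cells and the receptor gene Tgfbr2 at 21.4 ± 1.33 RPKM in polyclonal chronic and 61.6 ± 3.17 RPKM in vehicle chronic cells.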
